A study of Mus musculus with 9 samples.

Results

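T-box transcription factors were examined in the developing inner ear and the rest of the mouse embryo at E10.5. Members were the probes whose array symbol was *Tbx1*, *Tbx2*, *Tbx3*, *Tbx4*, *Tbx5*, *Tbx6*, *Tbx15*, *Tbx18*, *Tbx20* or *T*, and all 10 genes were found among the 18120 symbols of the array. Together they had 16 of the 25697 probes, with 1 probe for 6 of the genes, 2 probes each for *Tbx5* and *Tbx6*, and 3 probes each for *Tbx3* and *Tbx20*. All tissue came from CD-1 embryos with no mutation or treatment named in the labels. The 3 groups were the OV (otic vesicle), the periotic tissue around it, which holds mesenchyme and hindbrain, and embryo-minus-otic tissue, which is the whole embryo without the greater otic region. Each group had 3 pools of RNA dissected from the same 3 litters, and each pool was hybridized to its own MouseRef-8 v2.0 array.

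T-box proteins bind DNA through a shared domain, the T-box, and act as activators or repressors of transcription in cells that are choosing a fate. Brachyury, the product of *T*, is the founding member and works in the notochord and tail bud. *Tbx1* is the family member best known in the ear, where the vesicle needs it to form the sensory and vestibular organs, and its loss is linked to DiGeorge syndrome. *Tbx2* and *Tbx3* are close relatives that act mainly as repressors, while *Tbx5* and *Tbx4* are known for the forelimb with the heart, and for the hindlimb.

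Levels are log2 intensities after quantile normalization over the 9 arrays, and a difference of 1 on this scale is a doubling of intensity. Fold Δ is 2 to the power of the difference between 2 group means on that scale. A probe was called when its *q*, the p-value of limma after Benjamini-Hochberg correction across 25697 probes, was under 0.05. A probe was above background on an array when its deposited detection p-value was under 0.01, and the dimmest probe to meet this lay between 6.14 and 6.24 log2 units on the 9 arrays. Where a probe was above background on no array of the dimmer group, fold Δ is a lower bound, written "at least". The bound uses, for each dim array, the higher of that dimmest level and the probe's own value. Because probes differ in how brightly they bind their target, a level of 1 probe says nothing of how much RNA there is relative to that of another probe. The number of arrays limits the precision, and each p-value reflects only the spread between these pools.

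The arrays were alike in sensitivity, with 43.9% to 47.3% of probes above background. Otic epithelial markers (9 probes of 6 genes, among them *Oc90* and *Pax2*) summed to an intensity of 5092 to 5688 on the OV arrays, 825 to 943 on the periotic arrays and 1038 to 1103 on the embryo-minus-otic arrays. Hindbrain markers (7 probes of 5 genes) summed to 716 to 795, 4555 to 5560 and 1462 to 1621 in the same order. Heart muscle markers (8 probes of 6 genes) reached 7720 to 9095 in embryo-minus-otic tissue and 446 to 463 in periotic tissue. In the OV they summed to 816 on the replicate 1 array, with 4 of 8 probes above background, against 433 and 429 on the other OV arrays, where 0 of 8 were. Results that involve the OV are therefore also given without OV replicate 1 where members were called. Head mesenchyme markers (8 probes of 5 genes) summed to 1032 to 1169 in the OV and 1309 to 1488 in periotic tissue. In embryo-minus-otic tissue they reached 2207 to 2710. Every OV pool gave detectable signal for 4 of the 5 mesenchyme genes, so leaving out replicate 1 does not remove it. The source of this mesenchyme signal in the OV was not tested.

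Promoter sequence is shown for the members that were called between tissues and had an entry in the RefSeq table (GRCm38.p6), to set out what lies at the start of genes that were bright in the vesicle and of genes that were bright elsewhere. Windows of 300 bases, from 250 before to 50 after an annotated start, were matched for 6 of the 10 genes, and a second start of *Tbx1* made 7 windows. The windows printed are chr16:18588850-18589149 on the minus strand for *Tbx1*, chr17:8434173-8434472 on the plus strand for *T* and chr7:126781233-126781532 on the plus strand for *Tbx6*. Each reads 5′ to 3′ along its gene, and capitals mark a GC box (GGGCGG, or its reverse CCGCCC) or a TATA box (TATAAA, or its reverse TTTATA).
Tbx1: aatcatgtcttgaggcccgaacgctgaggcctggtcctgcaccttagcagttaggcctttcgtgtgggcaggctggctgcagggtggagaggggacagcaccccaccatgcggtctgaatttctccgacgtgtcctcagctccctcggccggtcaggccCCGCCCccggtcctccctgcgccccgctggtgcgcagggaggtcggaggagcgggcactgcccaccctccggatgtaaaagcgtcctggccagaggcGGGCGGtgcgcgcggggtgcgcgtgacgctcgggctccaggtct
T: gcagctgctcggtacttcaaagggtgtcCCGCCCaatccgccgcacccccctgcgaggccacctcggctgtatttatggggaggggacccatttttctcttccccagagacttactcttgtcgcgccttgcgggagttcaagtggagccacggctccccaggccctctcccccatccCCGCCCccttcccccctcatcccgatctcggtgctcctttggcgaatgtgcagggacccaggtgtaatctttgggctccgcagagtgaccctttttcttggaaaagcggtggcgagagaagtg
Tbx6: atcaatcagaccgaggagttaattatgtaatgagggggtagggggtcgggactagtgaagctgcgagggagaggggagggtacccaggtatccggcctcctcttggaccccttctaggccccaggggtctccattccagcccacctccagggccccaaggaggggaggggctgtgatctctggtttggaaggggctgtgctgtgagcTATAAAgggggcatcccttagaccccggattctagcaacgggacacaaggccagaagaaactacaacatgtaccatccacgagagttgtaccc
The *Tbx1* window printed held 26 CG dinucleotides at 69% GC with 2 GC boxes. The window at the other *Tbx1* start, chr16:18590622-18590921 on the minus strand, held 16 at 58.3% GC with 0 GC boxes and 0 TATA boxes, and the *T* window held 17 at 61.7% GC, also with 2 GC boxes. *Tbx6* had 7 CG dinucleotides at 57.7% GC and 1 TATA box. Over all 32851 windows of the table the median was 7 CG dinucleotides and 52.7% GC, a GC box was present in 35.7% and a TATA box in 13.6%. The T-box half-site AGGTGTGA was searched on both strands and occurred in 1.28% of all windows and in 0 of the 7 member windows. Its shorter form GGTGTGA, which lies within it, occurred in 3.98% of all windows and in 0 of 7. *Tbx2*, *Tbx3*, *Tbx5* and *Tbx15* were not matched.

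The T-box genes fell into a vesicle set, a set brighter in the rest of the embryo, and a set with no probe above background. *Tbx1*, *Tbx2* and *Tbx3* were above background in every OV pool and were higher there than in both non-otic tissues, except that 1 of the 3 *Tbx3* probes missed the threshold against the embryo. *T* and 1 *Tbx6* probe were higher in embryo-minus-otic tissue. In all, 6 of the 16 probes, from 4 genes, were above background on every array of at least 1 group, against 46.1% of all probes. Of the other probes, 9 were above background on no array, and 1, for *Tbx6*, was so on some embryo-minus-otic arrays.

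Against periotic tissue, 5 member probes of 3 genes were called higher in the OV and 0 lower, where 5.07% of all probes were called higher and 5.15% lower. Against embryo-minus-otic tissue, 4 probes of 3 genes were called higher in the OV and 2 probes of 2 genes lower, beside 5.89% and 5.51% of all probes. Between the non-otic tissues, 0 probes were called higher in periotic tissue and 6 probes of 4 genes lower, beside 2.86% and 2.95%. At an unadjusted p under 0.05, limma gave 5, 9 and 9 of the 16 probes in these comparisons, both directions counted. Without regard to direction, 10.2%, 11.4% and 5.81% of all probes were called in these comparisons. Arrays of the OV lay all above those of periotic tissue for 5 member probes and all below for 0, beside 12.3% and 12.8% of all probes. Against embryo-minus-otic tissue they lay all above for 5 and all below for 6 (13.1% and 11.8% of all probes), and periotic arrays lay all above embryo-minus-otic arrays for 1 and all below for 8 (10.6% and 9.19%). Medians over the 16 probes were near 0, at 0.04 log2 units for OV minus periotic tissue and 0.03 for OV minus embryo-minus-otic tissue, and 9 of these probes were above background on no array. For periotic minus embryo-minus-otic tissue the median was -0.16, and over all probes the medians were 0, 0.00 and 0.01.

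**Figure D1:**
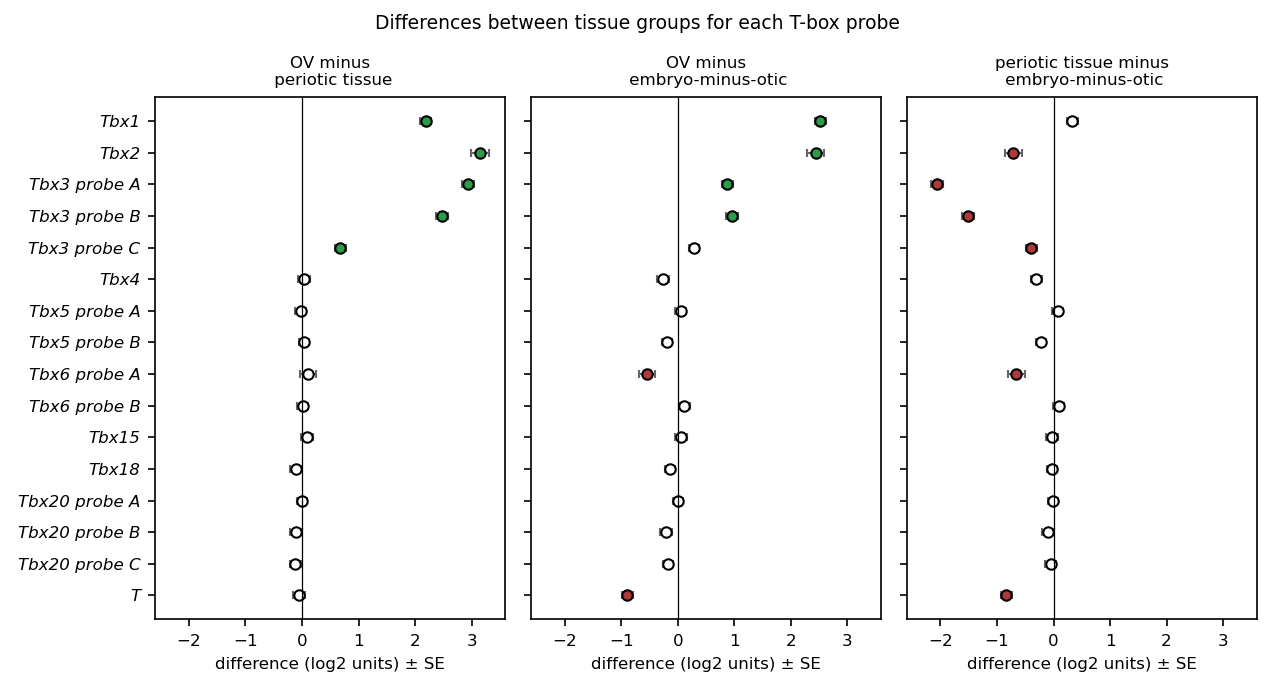
Difference in normalized log2 intensity between tissue groups for each of the 16 T-box probes, with bars for the standard error from limma and filled points for probes with *q* under 0.05 (green higher, red lower in the first group named). *Tbx1*, *Tbx2* and *Tbx3* lie to the right in both OV panels, from 0.29 to 3.15 log2 units, and *T* lies to the left in both panels that set a tissue against the embryo.

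*Tbx1* was the member most evenly set apart in the vesicle, several-fold above both other tissues. Its levels (probe ILMN_1252399) on the OV arrays were 9.51, 9.74 and 9.70 log2 units. In periotic tissue they were 7.38, 7.46 and 7.56, and in embryo-minus-otic tissue 7.28, 7.06 and 7.06. Every OV array lay above every non-otic array, and all 9 arrays were above background. The OV mean of 9.65 ± 0.126 (SD, n = 3) exceeded that of periotic tissue by 2.19 log2 units (SE 0.098), a fold Δ of 4.55 with *q* = 3.55e-10 in limma. Against embryo-minus-otic tissue the difference was 2.52 (SE 0.098), a fold Δ of 5.73 with *q* = 2.13e-10. Without OV replicate 1 these were 4.76-fold and 5.99-fold. By its fold Δ over the higher non-otic mean, *Tbx1* ranked 32 among all probes.

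Between the non-otic tissues, the 3 periotic values of *Tbx1* all lay above the 3 embryo-minus-otic values. The difference of 0.33 log2 units (SE 0.098) did not pass the threshold, with *q* = 0.0652 in limma. It passed with median normalization (0.50, *q* = 0.0312) and without embryo-minus-otic replicate 1 (0.41, *q* = 0.0344).

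*Tbx2* ran from bright in the vesicle, through weak in the embryo, to not above background in periotic tissue. Its OV levels (probe ILMN_2773918) were 8.87, 8.90 and 9.41 log2 units. Embryo-minus-otic arrays gave 6.45, 6.96 and 6.46, all above background, and periotic arrays gave 5.85, 5.87 and 6.02, none above background. No group overlapped another in this order. The OV exceeded periotic tissue by 3.15 log2 units (SE 0.151), at least 7.35-fold with *q* = 7.73e-10, and the measured means differed 8.87-fold. Over embryo-minus-otic tissue the fold Δ was 5.42 with *q* = 1.64e-08, which ranked 15 among all probes for excess over the higher non-otic tissue.

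Periotic tissue was lower than embryo-minus-otic tissue for *Tbx2* by 0.71 log2 units (SE 0.151, *q* = 0.00852), and the embryo was at least 1.36-fold brighter. With median normalization this last comparison missed the threshold (-0.71, *q* = 0.0502). Background correction with neqc widened the difference between the means to 4.43 log2 units for OV minus periotic tissue, 3.09 for OV minus embryo-minus-otic tissue and -1.34 for the non-otic tissues. Leaving out OV replicate 1 gave 3.23 and 2.52 log2 units for the OV comparisons.

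*Tbx3* shared the low periotic level of *Tbx2* but was bright in the embryo as well as in the vesicle. On probe ILMN_1247220, here called probe A, the OV arrays read 9.15, 9.20 and 9.30 log2 units. The embryo-minus-otic arrays read 8.38, 8.31 and 8.34, and the periotic arrays 6.16, 6.19 and 6.5, of which only the last was above background. All 3 groups were separate. The OV was 7.66-fold above periotic tissue (2.94 log2 units, SE 0.099, *q* = 2.43e-11) and 1.84-fold above embryo-minus-otic tissue (0.88, SE 0.099, *q* = 1.27e-05). Embryo-minus-otic tissue in turn was 4.17-fold above periotic tissue (*q* = 2.14e-09).

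Probe B of *Tbx3* (ILMN_3139514) gave the same order of tissues. Its OV levels were 8.37, 8.68 and 8.81 log2 units, its embryo-minus-otic levels 7.61, 7.66 and 7.72, and its periotic levels 6.09, 6.17 and 6.18, with 1 periotic array above background. The OV was 5.56-fold above periotic tissue (*q* = 2.01e-10) and 1.94-fold above embryo-minus-otic tissue (*q* = 1e-05), and the embryo was 2.86-fold above periotic tissue (*q* = 1.51e-07). Probe C (ILMN_3061990) read 6.57, 6.63 and 6.81 in the OV, 6.49, 6.35 and 6.31 in the embryo and 5.93, 6.05 and 6.01 in periotic tissue, where no array was above background.

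On probe C the OV was at least 1.40-fold above periotic tissue (0.68 log2 units between the means, SE 0.0922, *q* = 8.51e-05), and without OV replicate 1 the difference was 0.72 (*q* = 0.000253). OV and embryo-minus-otic arrays did not overlap, but the difference of 0.29 (SE 0.0922) missed the threshold at *q* = 0.0608. It passed with neqc (0.50, *q* = 0.0352) and without embryo-minus-otic replicate 1 (0.35, *q* = 0.0414). Embryo-minus-otic tissue was at least 1.15-fold above periotic tissue (*q* = 0.0175), a call lost with no normalization (*q* = 0.214), without embryo-minus-otic replicate 1 (*q* = 0.0722) and without periotic replicate 1 (*q* = 0.0843). The profiles of probes A and B over the 9 arrays, each centred on its own mean, were 0.27 log2 units apart in root mean square, while probe C was 0.96 from A and 0.75 from B.

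With neqc, the OV fold Δ over periotic tissue grew to 14.8 on probe A and 11.3 on probe B, and the difference between the means on probe C to 1.30 log2 units. The periotic deficit against the embryo grew to -2.92 on probe A and -2.39 log2 units on probe B. Without OV replicate 1, probe A gave 7.79-fold and 1.88-fold, and probe B 6.01-fold and 2.11-fold, against periotic and embryo-minus-otic tissue.

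**Figure D2:**
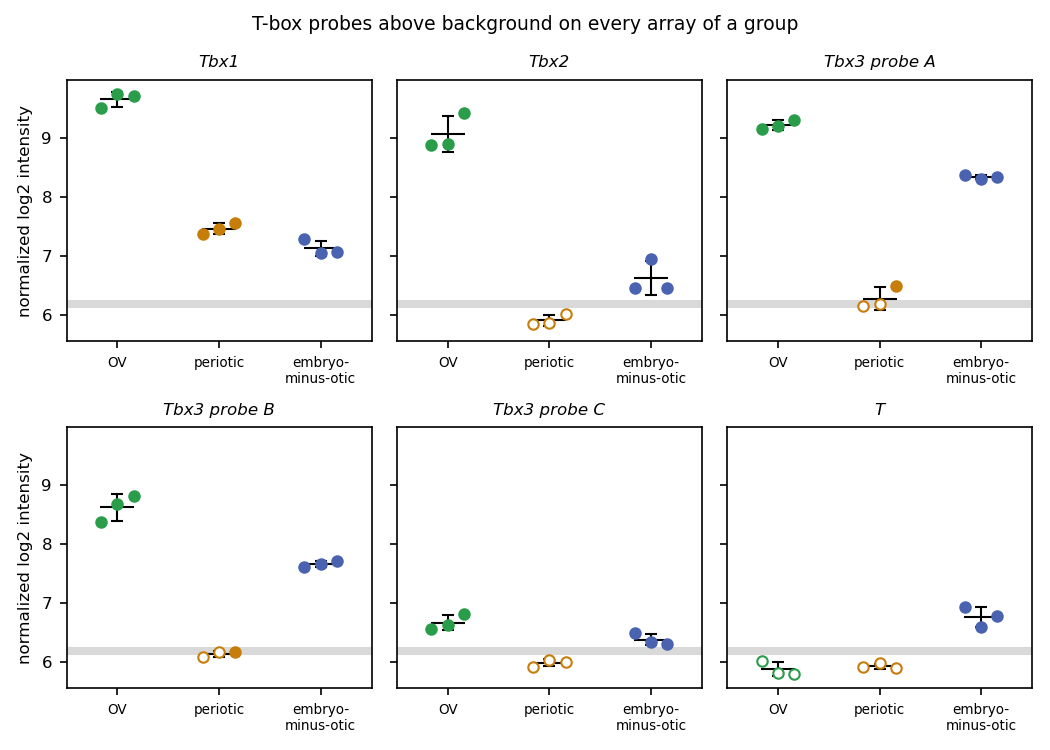
Normalized log2 intensity of the 6 T-box probes above background on every array of at least 1 group, in each of the 9 arrays, with filled points above background (detection p under 0.01), open points not, and bars for mean ± SD of 3 arrays. The grey band spans the dimmest level above background on the 9 arrays, and the OV points of *Tbx1*, *Tbx2* and *Tbx3* lie above it while the OV points of *T* do not.

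General epithelial markers (4 probes of 4 genes, *Cdh1*, *Krt8*, *Krt18* and *Cldn6*) summed to an intensity of 7525 to 8444 in the OV, 639 to 922 in periotic tissue and 1422 to 2033 in embryo-minus-otic tissue. All 4 were called higher in the OV in both comparisons and lower in periotic than in embryo-minus-otic tissue, an order of tissues that *Tbx2* and *Tbx3* probes A and B shared. *Tbx1* shared the high OV level but not the order of the non-otic tissues, and the part of epithelial content in these results was not tested. In bulk tissue, fewer cells that express a gene and less of its RNA per cell cannot be told apart.

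*T* had the opposite distribution, with signal in the embryo and none above background near the ear. Embryo-minus-otic arrays (probe ILMN_1244340) read 6.93, 6.60 and 6.78 log2 units, all above background. OV arrays read 6.02, 5.82 and 5.80 and periotic arrays 5.92, 5.98 and 5.90, with no array above background in either tissue. The otic and periotic values overlapped and differed by -0.05 log2 units (*q* = 0.872). The embryo was at least 1.48-fold above the OV (0.89 log2 units between the means, SE 0.0995, *q* = 1.18e-05) and at least 1.5-fold above periotic tissue (0.84, SE 0.0995, *q* = 5.09e-05). With neqc the differences were -1.62 and -1.57 log2 units for the OV and periotic tissue against the embryo, and without OV replicate 1 the first was -0.96.

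*Tbx6*, a determinant of paraxial mesoderm, was also brighter in the embryo on probe A (ILMN_1249014), though less steadily. Its embryo-minus-otic levels were 6.96, 6.18 and 6.56 log2 units, of which 2 were above background. OV levels were 6.09, 6.02 and 5.96 and periotic levels 5.97, 5.88 and 5.89, none above background. The embryo arrays lay above all 6 others, but replicate 2 exceeded the brightest OV array only slightly. The embryo was at least 1.29-fold above the OV (SE 0.142 on a difference of 0.54 between the means, *q* = 0.0194) and at least 1.30-fold above periotic tissue (*q* = 0.00998). Without OV replicate 1 the OV difference was -0.57 (*q* = 0.0406), and the call was lost without embryo-minus-otic replicate 1 (-0.36, *q* = 0.0633), without OV replicate 2 (*q* = 0.0615) and without OV replicate 3 (*q* = 0.0728). *Tbx6* probe B was above background on no array, with group means of 5.70, 5.68 and 5.58 for the OV, periotic and embryo-minus-otic tissue.

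Paraxial mesoderm and somite markers (6 probes of 6 genes) summed to an intensity of 1435 to 1526 in embryo-minus-otic tissue, 364 to 428 in the OV and 353 to 380 in periotic tissue, with 3 of the 6 genes above background on all embryo arrays and the other 3 on none. Their part in the *T* and *Tbx6* results was not tested.

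The members known for limb, heart and skin were not above background in any tissue at E10.5. *Tbx4*, the hindlimb factor, read 5.86, 5.73 and 5.67 log2 units on the OV arrays and 5.53, 5.77 and 5.84 on the periotic arrays. The embryo-minus-otic arrays read 6.05, 5.88 and 6.12. Every embryo array lay above all OV and periotic arrays, yet the differences of -0.26 and -0.30 were not called (*q* = 0.129 and *q* = 0.117). *Tbx5* probe B, with means of 5.72, 5.68 and 5.91 in the same order of tissues, also missed the threshold against the embryo (*q* = 0.212 for the OV and *q* = 0.168 for periotic tissue). Means of *Tbx5* probe A were 5.84, 5.86 and 5.79.

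*Tbx15*, a gene of dermis and skeleton, had means of 5.88, 5.79 and 5.82 log2 units. *Tbx18*, known from epicardium and from mesenchyme around the ear, had means of 5.86, 5.97 and 6.0, and its brightest array was periotic replicate 3 at 6.14. The cardiac factor *Tbx20* had means of 5.90, 5.89 and 5.89 on probe A, 5.77, 5.87 and 5.98 on probe B, and 5.54, 5.66 and 5.71 on probe C. These values lay at or under the dimmest level above background, so a difference among the tissues was not detectable for these probes with this array. Embryo-minus-otic tissue held heart muscle and distal limb markers above background on all its arrays for 5 of 6 and 2 of 5 genes. For the distal limb, 1 of 5 genes was also above background on all arrays of the OV and of periotic tissue. Distal limb sums were 472 to 506 in embryo-minus-otic tissue, 414 to 472 in the OV and 421 to 437 in periotic tissue.

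**Figure D3:**
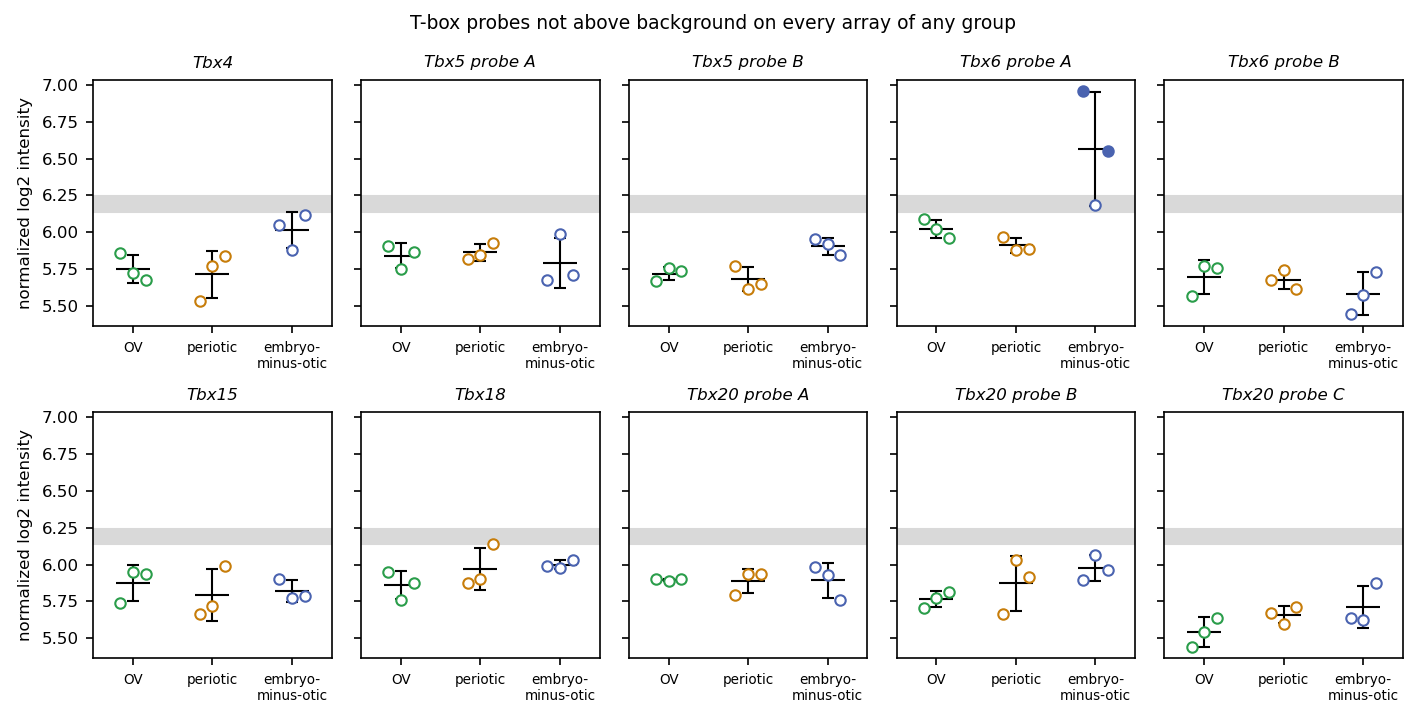
Normalized log2 intensity of the 10 T-box probes that were not above background on every array of any group, in each of the 9 arrays, with filled points above background (detection p under 0.01), open points not, and bars for mean ± SD of 3 arrays. The 2 filled points, both embryo-minus-otic arrays of *Tbx6* probe A, are the only values above background among these probes.

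In GRCm38.p6, *Tbx2* and *Tbx4* are neighbours on chromosome 11 and *Tbx3* and *Tbx5* on chromosome 5, each pair with 0 protein-coding genes between. In the OV, *Tbx2* and all 3 *Tbx3* probes were above background on all arrays, and the *Tbx4* probe and both *Tbx5* probes on none.

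Profiles over the 9 arrays were compared with those of other genes that were above background on all arrays of a group and spanned at least 1 log2 unit between group means. Closest to *Tbx1*, among 778 such probes, were *Plekha4* at a root mean square distance of 0.14 log2 units, the homeobox gene *Gbx2* at 0.16 and *Sh3gl2*, an endophilin, at 0.17. *Tbx2* was closest to *Fgf10*, an FGF ligand (0.25), and then to *1190002H23Rik* (0.26). Probe B of *Tbx3* was closest to *2810004A10Rik* (0.20) and then to *LOC381297* (0.22), which was also among the 3 closest to probe A (0.40). These distances describe 9 arrays in 3 tissues, so any genes with like tissue means come out close.

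Among 7 other genes of the family (8 probes), *Tbx10*, a close relative of *Tbx1*, was the member called. It had a periotic mean of 6.74 ± 0.4 log2 units (SD, n = 3), above background on all 3 arrays, against 5.75 ± 0.108 in the OV and 5.80 ± 0.0574 in embryo-minus-otic tissue, where no array was above background. Periotic tissue was at least 1.45-fold above the OV (*q* = 2.07e-04) and at least 1.44-fold above the embryo (*q* = 6.82e-04). The hindbrain markers given above were also highest in periotic tissue, all 7 probes called over both other groups, and their part in the *Tbx10* result was not tested. *Tbx19*, *Tbx21*, *Tbx22*, *Tbr1*, *Eomes* and *Mga* had 0 probes called in the 3 comparisons.

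Genes known to work with *Tbx1* in the ear and pharynx differed between the tissues in both directions. The list had 23 probes of 16 genes. In the OV, 9 probes of 6 genes were called higher and 5 probes of 5 genes lower than in periotic tissue. Beside embryo-minus-otic tissue, 7 probes of 4 genes were higher and 7 probes of 6 genes lower in the OV. The median differences were 0.19 and 0.07 log2 units, beside 0 and 0.00 over all probes. *Otx1*, a homeobox gene with a known role in the patterning of the vesicle, was 11.6-fold above periotic tissue in the OV (*q* = 2.97e-08). It was as bright in embryo-minus-otic tissue, with means of 9.89 log2 units in the OV and 9.74 in the embryo (difference 0.15, *q* = 0.81). *Gbx2* was 6.60-fold above embryo-minus-otic tissue (*q* = 2.13e-10). *Cyp26b1*, an enzyme that breaks down retinoic acid, was at least 1.66-fold higher in periotic tissue than in the OV (*q* = 2.2e-06).

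Genes that *Tbx2* and *Tbx3* are known to repress in other tissues were not uniformly low in the OV, where both repressors were bright. The list had 12 probes of 7 genes. In the OV, 5 probes of 3 genes were called higher and 1 probe lower than in periotic tissue (median 0.38 log2 units). Beside embryo-minus-otic tissue, 4 probes of 2 genes were higher and 3 probes of 2 genes lower in the OV (median 0.15). *Cdkn1a*, a cyclin-dependent kinase inhibitor, was 3.62-fold higher in the OV than in periotic tissue (*q* = 1.1e-08), and *Cdh1*, the epithelial cadherin, was 2.49-fold higher than in embryo-minus-otic tissue (*q* = 6.5e-07). Of the 3 probes of *Gja5*, a connexin of the heart, 1 was lower in the OV than in periotic tissue by 0.61 log2 units (*q* = 0.0219), and its other probes were not called (0.07, *q* = 0.8, and -0.23, *q* = 0.477). Among probes lower in the OV than in the embryo, *Nppa* had the largest difference, with embryo-minus-otic tissue 15.4-fold above the OV (*q* = 2.63e-09). Only 1 OV array was above background for *Nppa*. The *Gja5* probe called against periotic tissue was also 3.15-fold higher in embryo-minus-otic tissue than in the OV (*q* = 2.8e-06). *Cdh1* is also one of the epithelial markers above, and the part of epithelial content in these counts was not tested.

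Heart genes that share targets or complexes with T-box factors were mostly embryo genes here. Of 14 probes of 10 genes, 0 were called higher in the OV than in embryo-minus-otic tissue. There 8 probes of 6 genes were lower, with a median difference of -0.57 log2 units. In periotic tissue, 0 probes were higher and 7 probes of 6 genes lower than in embryo-minus-otic tissue. *Nppa*, the natriuretic peptide gene of atrial muscle, was 15.4-fold higher in embryo-minus-otic tissue than in the OV (*q* = 2.63e-09). Its OV mean was 6.16 ± 0.568 log2 units (SD, n = 3), with only 1 OV array above background. Against periotic tissue 1 probe was higher in the OV, *Gja1* at 1.48-fold (*q* = 0.00174), and 2 were lower, of which 1 of the 3 *Mef2c* probes had the larger difference (-0.73, *q* = 0.00241). The other *Mef2c* probes were not called in that comparison (-0.25, *q* = 0.222, and -0.39, *q* = 0.0926).

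Presomitic mesoderm and tail bud genes, the setting in which *T* and *Tbx6* are known to act, had 1 of 9 probes called higher and 4 lower in the OV than in embryo-minus-otic tissue, and 2 higher and 3 lower than in periotic tissue. Between the non-otic tissues, 3 were called higher and 2 lower in periotic tissue, *Wnt3a* among the higher (1.42 log2 units, *q* = 1.37e-05). *Lfng*, a modifier of Notch receptors, was the one higher against the embryo, at least 1.36-fold (*q* = 1.83e-05), and was also higher against periotic tissue (0.53 log2 units, *q* = 0.00255). *Wnt3a*, a Wnt ligand of the tail bud and the dorsal neural tube, was 10.2-fold higher in periotic tissue (*q* = 3.05e-10) and 3.82-fold higher in embryo-minus-otic tissue (*q* = 1.82e-07) than in the OV.

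Limb bud genes had 16 probes of 8 genes. In the OV, 4 probes of 2 genes were called higher and 2 probes of 1 gene lower than in periotic tissue. Beside embryo-minus-otic tissue, 3 probes of 1 gene were higher and 6 probes of 3 genes lower in the OV. *Fgf10*, which signals in the limb bud and also in the ear, led the first group, with a difference of 3.33 log2 units over periotic tissue (*q* = 2.61e-12) and a fold Δ of 4.78 over embryo-minus-otic tissue (*q* = 1.69e-10). *Shh*, a ligand of the limb, notochord and floor plate, was at least 3.92-fold higher in periotic and at least 4.16-fold higher in embryo-minus-otic tissue than in the OV (*q* = 1.14e-08 and *q* = 8.68e-09). *Fgf8*, *Fgf10*, *Nppa*, *Gja1* and *Gja5* each stand in more than 1 of these lists, so the counts are not independent of each other. Over all probes, 5.07% were called higher and 5.15% lower in the OV than in periotic tissue. The shares were 5.89% and 5.51% for the OV against embryo-minus-otic tissue, and 2.86% and 2.95% for periotic against embryo-minus-otic tissue.

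**Figure D4:**
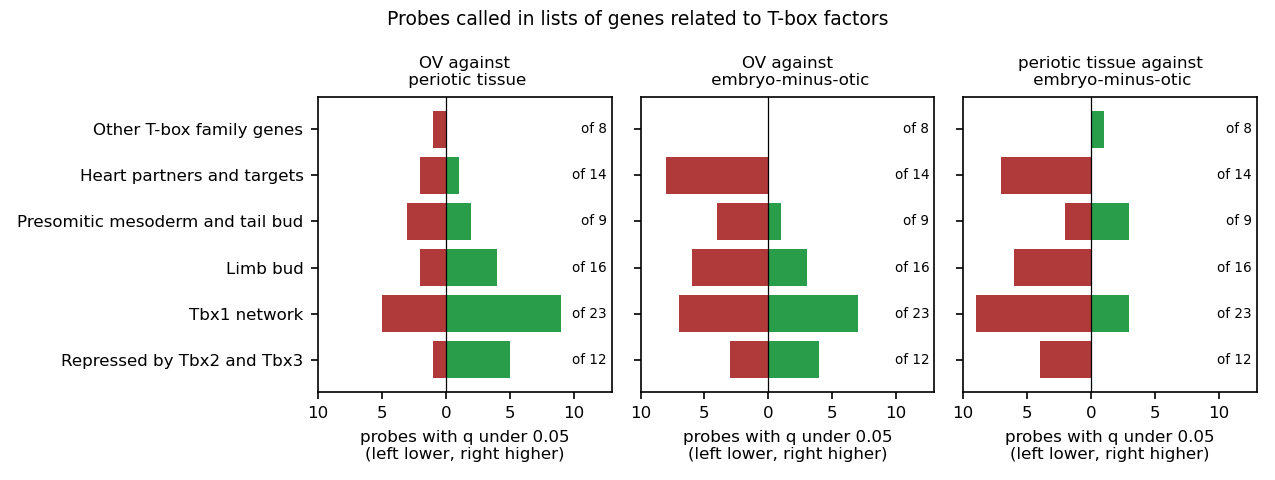
Number of probes with *q* under 0.05 in 6 lists of genes related to the T-box factors, drawn to the right where the first tissue named was higher and to the left where it was lower, with the probes measured given at the right edge. The OV bars of the *Tbx1* network reach both ways (9 higher and 5 lower against periotic tissue), while the heart list reaches to the left against embryo-minus-otic tissue (8 lower of 14).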

How the data were processed

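Pooled RNA of OV, periotic and embryo-minus-otic tissue, 3 pools each, was hybridized to 9 Illumina arrays of 1 colour. The authors deposited GenomeStudio average signals, an intensity per probe and array without normalization between arrays, and detection p-values that step by 1 in 798 negative controls. Whether background was subtracted, and which slide held each array, is not given in the sources used here.

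Groups followed the tissue named in the labels. Signals, all above the floor of 1, were set on the deposited intensity's log2 scale, quantile normalized and fitted as one model of 3 groups with limma 3.58.1 in R 4.3.3. Each comparison was adjusted over 25697 probes. Probes were not averaged by gene, and the steps were tested on simulated data. Every member probe was named, as were the list genes with the largest called difference in each direction against the OV and the 3 closest profiles, but not all genes under this rule are reported here. Of the listed genes, 78 were found by symbol and 2 by synonym, and 8 were not analysed here. Members and lists were chosen with earlier results of these data known. Alternatives were neqc (offset 16), median and no normalization, detection filters at 0.01 and 0.05, only the groups compared, the replicate block, an intensity trend, array weights and each array left out.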

Additional observations from a re-analysis of the deposited data

How the results depend on the processing

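No called difference of a member probe changed sign under these alternatives. Of the results for single probes, 796 kept their side of the threshold, 7 lost a call and 4 gained one. Among probes that were not called, the sign changed 28 times. Median normalization gave 1 member probe higher in periotic than in embryo-minus-otic tissue, where the count had been 0. Testing only probes above background at 0.01 left 6 member probes and gave 1 lower in the OV than in embryo-minus-otic tissue, where it had been 2. Leaving out each array in turn gave 5 and 0 probes higher and lower in the OV than in periotic tissue, 4 to 5 and 1 to 2 against embryo-minus-otic tissue, and 0 to 1 and 5 to 6 for periotic against embryo-minus-otic tissue. The calls lost or gained are given with each gene.

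With the replicate number as a block, the member counts were unchanged at 5 and 0, 4 and 2, and 0 and 6 probes higher and lower in the 3 comparisons, and calls over all probes went from 2625 to 2790, from 2930 to 3221 and from 1493 to 1669. Same-numbered arrays of different groups deviated together with correlations from 0.008 to 0.182, so the numbers were not taken as pairs. Yet 9 of 9 arrays were closest to an array of their own number in another group. The tissues were dissected from the same litters, but whether a replicate number marks the same litter in each tissue is not stated. The array's background limits what can be seen for the 9 member probes above it on no array. Background correction with neqc kept every member call. For 10 called differences it changed fold Δ between the means by over 1.5 times, each with the log2 difference moving away from 0, and the cause was not tested.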
